A study of Mus musculus with 12 samples.

Results

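The heat shock chaperones described here are 10 genes, taken by symbol from the count table, which lists 17210 genes in all. They comprise the transcription factor Hsf1, the HSP70 family members Hspa1a, Hspa1b, Hspa8 and Hspa9, the HSP110 exchange factors Hspa4 and Hsph1, the HSP90 genes Hsp90aa1 and Hsp90ab1, and the J-domain protein gene Dnajb1. The choice went by symbol and not by a measured threshold, but it was made with earlier results of these data known. Chaperones of these families hold unfolded proteins in solution and help them to fold. HSP70 binds short hydrophobic stretches of a protein and uses ATP to let them go again, a J-domain protein such as DNAJB1 brings the client and starts ATP use, and an HSP110 protein exchanges ADP for ATP. Clients may then pass to HSP90, which finishes the folding of kinases and steroid receptors. HSF1 is the factor that switches on many of these genes in heat or other protein stress, by binding heat shock elements, which are alternating GAA and TTC units. In maturing erythroid cells HSP70 is known to protect GATA1 from cleavage.

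RNA was sequenced from G1E-ER4, a mouse erythroid line labelled C57BL/6J that lacks its own GATA1 and carries GATA1 fused to the ligand-binding part of the estrogen receptor, in all groups alike. Cells were transduced for 24 h with retrovirus holding an empty vector (Vector) or a FLAG-tagged active fragment of SREBP2, residues 1 to 468 (SREBP2), and were left without β-estradiol (EST) or given it for 6 h (Vector+EST, SREBP2+EST), with 3 libraries in each of the 4 groups. For EST, the samples' protocol gives 500 nM where the series' design gives 200 nM. All libraries come from 1 cell line. The labels do not say whether the libraries of a group came from separate cultures, and a statement of the study on independent experiments is general and is not tied to these libraries. The p-values measure the spread between the libraries, which is technical in part or whole if cultures were shared. Each library is named by its group and its header number.

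Estimated counts totalled 18700959 to 19152281 per library. The unit of level is CPM, counts set against the TMM-scaled total of the library, and 3 counts, the floor taken for detection, were 0.16 CPM in the smallest library. The labels call the cells embryonic stem cells, yet 13 of 14 erythroid marker genes were in the table, none of them at the floor, with summed levels of 7219 to 10748 CPM. Of 10 pluripotency markers 6 were in the table, 4 of which stayed at the floor in every library, Nanog reached at most 11 counts, and nearly all of their sum of 91.1 to 102 CPM came from Dppa4. Srebf2, the mouse gene for SREBP2, stood at 361 ± 8.32 CPM (SD, n = 3) in Vector and 816 ± 20.1 CPM in SREBP2. With EST its level was 441 ± 13.02 CPM for Vector+EST and 808 ± 6.66 CPM in SREBP2+EST. For transduced cells of this line the paper quantified the human SREBP2 transcript. These values are therefore not a measure of the retroviral transcript, whose part in the mouse Srebf2 counts was not tested. Gata1, in whose counts reads of the fusion cannot be told apart, stood at 1769 ± 17.04 CPM in Vector and at 557 ± 40.2, 452 ± 28.5 and 519 ± 54.7 CPM in the groups with SREBP2, EST and both. Both SREBP2-transduced groups held 1 library that stood apart: on the first principal component (65.3% of the variance) SREBP2 library 1, at 29.6, was closer to SREBP2+EST libraries 2 and 5, at 31.01 and 31.2, and SREBP2+EST library 1, at 26.1, was closer to SREBP2 libraries 3 and 5, at 22.5 and 22.4, than to their own groups. Results that rest on these libraries are given with and without them. In bulk RNA, fewer cells of a type and less RNA per cell cannot be told apart.

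The promoters are shown first so that heat shock elements can be compared among members. RefSeq promoter windows (GRCm38.p6) were held for 5 of the 10 members, in 7 windows. The 250 bases upstream of the start are printed 5′ to 3′ for the first window of each, with the 2-unit heat shock elements GAANNTTC or TTCNNGAA in capitals.
Hspa1a (chr17:34972157-34972406, minus strand): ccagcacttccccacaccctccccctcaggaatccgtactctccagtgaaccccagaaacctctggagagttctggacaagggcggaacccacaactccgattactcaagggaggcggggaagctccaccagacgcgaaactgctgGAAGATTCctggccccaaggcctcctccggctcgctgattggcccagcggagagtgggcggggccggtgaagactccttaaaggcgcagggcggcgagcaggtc
Hspa1b (chr17:34959239-34959488, minus strand): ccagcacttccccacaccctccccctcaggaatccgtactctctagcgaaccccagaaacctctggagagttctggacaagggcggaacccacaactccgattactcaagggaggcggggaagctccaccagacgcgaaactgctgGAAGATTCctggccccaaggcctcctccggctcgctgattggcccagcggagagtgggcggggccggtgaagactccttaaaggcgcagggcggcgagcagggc
Hsph1 (chr5:149636337-149636586, minus strand): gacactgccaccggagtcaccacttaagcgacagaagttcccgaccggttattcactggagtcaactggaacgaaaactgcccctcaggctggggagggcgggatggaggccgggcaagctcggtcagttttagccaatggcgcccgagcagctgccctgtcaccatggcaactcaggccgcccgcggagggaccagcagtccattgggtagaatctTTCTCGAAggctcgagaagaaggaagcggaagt
Hspa4 (chr11:53300480-53300729, minus strand): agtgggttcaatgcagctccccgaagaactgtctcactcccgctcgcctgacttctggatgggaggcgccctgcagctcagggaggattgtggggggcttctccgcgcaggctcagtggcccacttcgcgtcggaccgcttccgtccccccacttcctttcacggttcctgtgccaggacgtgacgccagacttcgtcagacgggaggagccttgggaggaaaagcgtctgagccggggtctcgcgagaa
Dnajb1 (chr8:83607925-83608174, plus strand): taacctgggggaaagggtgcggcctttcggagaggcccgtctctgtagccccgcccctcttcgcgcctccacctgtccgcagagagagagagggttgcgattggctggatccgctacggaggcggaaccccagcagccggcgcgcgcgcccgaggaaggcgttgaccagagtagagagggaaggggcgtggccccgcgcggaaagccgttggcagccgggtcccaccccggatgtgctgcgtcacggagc

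The Hspa1a and Hspa1b stretches were identical at 247 of 250 positions, and each held GAANNTTC beginning 104 bases before the start. Hsph1, which encodes HSP105, held TTCNNGAA 33 bases before the start of its first window. Outside the printed bases, 36 after that start, it held the stretch TTCTGGAAAGTTC, which is a heat shock element of 3 units. In its second window these lay 54 bases before and 15 bases after the start. Neither 2-unit form occurred in the windows of Hspa4 or Dnajb1. Over windows of 300 bases, 250 before and 50 after the start, GAANNTTC was found in 7.86% and TTCNNGAA in 8.52% of all 32851 windows on either strand, and the 3-unit form, which contains both, in 0.603%. Counted by gene, GAANNTTC was found in 3 of the 5 members and 9.04% of 27025 genes, TTCNNGAA in 1 of 5 and 9.6%, and the 3-unit form in 1 of 5 and 0.662%. The GATA motif AGATAA (11.2% of all windows), the sterol regulatory element core CACCCCAC (2.87%) and the TATA box TATAAA (13.6%) were in none of the 7 member windows, and the CCAAT box CCAAT (37.4%) was in 5 of 7. A match of letters is no evidence of binding, and the absence of one says only that those letters are not in the window.

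The 8 members other than Hspa1a and Hspa1b, called abundant here, were all highest in Vector libraries. For each of the 8 abundant members, the 3 Vector libraries lay above the other 9. How many of all tested genes separate in this way was not counted. Against Vector, 35.5% of all genes were called lower with EST and 33.8% with SREBP2 alone. The summed level of all 10 genes was 14092 ± 462 CPM (SD, n = 3) in Vector, 9412 ± 621 CPM in SREBP2, 9225 ± 186 CPM for Vector+EST and 9369 ± 436 CPM in SREBP2+EST. As a share of TMM-scaled counts, which differs from the share of unscaled counts, this was 1.41% in Vector and 0.941%, 0.922% and 0.937% in the 3 other groups.

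**Figure D1:**
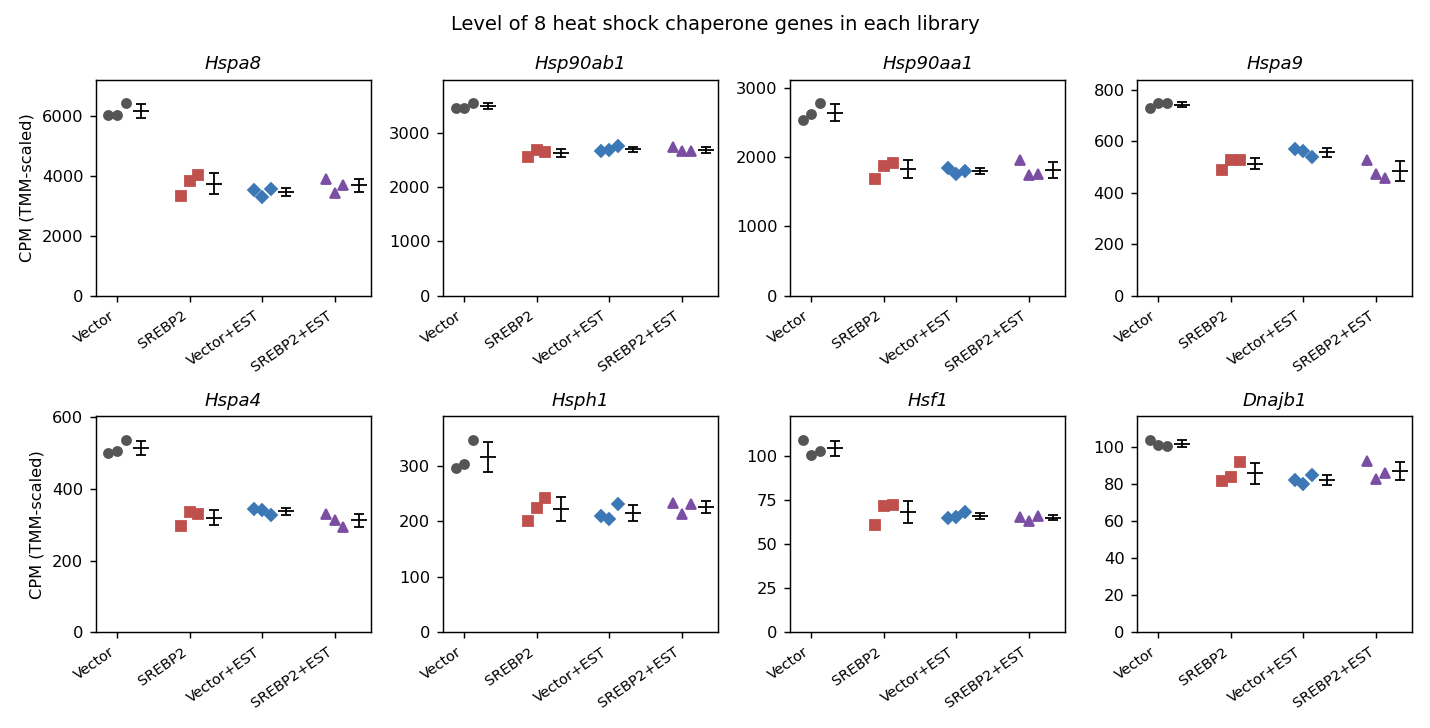
Level of the 8 abundant members in every library, in CPM scaled by edgeR's TMM factors, with y axes from 0. Each point is a library, and the bar to the right of each group is the mean with its SD (n = 3). In every panel the 3 Vector points lie above the 9 others.

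Hsf1 encodes the master factor of the heat shock response (chr15:76477362-76501155, GRCm38.p6). It stood at 109.6, 101 and 103 CPM in Vector libraries 1, 4 and 5, at 60.9, 71.7 and 72.5 CPM in SREBP2, at 64.8, 65.6 and 68.3 CPM for Vector+EST and at 65.8, 63.4 and 66.05 CPM in SREBP2+EST. The 9 libraries that received EST, SREBP2 or both did not overlap the Vector libraries and overlapped one another. With EST the fall of Hsf1 in Vector cells was 1.58-fold (log2 fold change -0.66 ± 0.06, SE, edgeR adjusted p = 3.76e-08), and with SREBP2 alone it was 1.53-fold (log2 fold change -0.61 ± 0.06, edgeR adjusted p = 8.35e-08).

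The constitutive HSP70 of the cytosol, Hspa8 (HSC70, chr9:40801276-40805202), was the most abundant member and the one that fell most with EST. It stood at 6046, 6022 and 6435 CPM in Vector, at 3337, 3841 and 4042 CPM in SREBP2, at 3526, 3297 and 3545 CPM for Vector+EST and at 3888, 3434 and 3707 CPM in SREBP2+EST. Its share of the summed member counts was 43.8% ± 0.302 (SD, n = 3) in Vector, 39.7% ± 1.31 in SREBP2, 37.5% ± 0.752 in Vector+EST and 39.2% ± 0.932 in SREBP2+EST, without overlap between Vector and the rest. The fall with EST in Vector cells was 1.78-fold (log2 fold change -0.84 ± 0.06, edgeR adjusted p = 2.94e-09), and that with SREBP2 alone was 1.65-fold (log2 fold change -0.72 ± 0.06, edgeR adjusted p = 1.54e-08).

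Hspa9 encodes mortalin, the HSP70 of the mitochondrial matrix, which takes part in protein import and iron-sulfur cluster assembly. It stood at 729.99, 747 and 749 CPM in Vector, at 489, 526 and 525 CPM in SREBP2, at 572, 561 and 538 CPM for Vector+EST and at 527, 471 and 455 CPM in SREBP2+EST. Among the abundant members, Hspa9 was the only one with this order: Vector+EST lay below Vector, and both SREBP2 groups lay below Vector+EST with no overlap. The highest SREBP2+EST library, at 527 CPM, was close to the lowest Vector+EST library, at 538 CPM. How many of all genes have this order was not counted. EST lowered it 1.33-fold in Vector cells (log2 fold change -0.42 ± 0.05, edgeR adjusted p = 9.1e-07) and SREBP2 lowered it 1.45-fold without EST (log2 fold change -0.53 ± 0.05, edgeR adjusted p = 4.65e-08). With EST present, Hspa9 was lower with SREBP2, by a log2 fold change of -0.20 ± 0.05 or 1.15-fold (edgeR adjusted p = 0.00681). In that comparison 7.94% of all genes were called lower. The call of Hspa9 was lost with the header number as a block (edgeR adjusted p = 0.132).

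The exchange factors of HSP70 followed. Hspa4 (APG-2, chr11:53259814-53300479) stood at 500.1, 505 and 538 CPM in Vector, at 296, 335 and 329.96 CPM in SREBP2, at 343, 342 and 326 CPM for Vector+EST and at 331, 314 and 294 CPM in SREBP2+EST. Vector libraries again stood apart, and the other 3 groups overlapped. The falls were 1.53-fold with EST (log2 fold change -0.61 ± 0.05, edgeR adjusted p = 2.35e-08) and 1.61-fold with SREBP2 (log2 fold change -0.68 ± 0.05, edgeR adjusted p = 5.52e-09). Hsph1 (HSP105, chr5:149616843-149636498) carries the heat shock elements described above. It stood at 296, 304 and 347 CPM in Vector and at 199.9, 224 and 242 CPM in SREBP2. It was at 210.2, 203 and 231 CPM for Vector+EST and at 232, 213 and 232 CPM in SREBP2+EST. Its log2 fold change was -0.56 ± 0.07 with EST and -0.51 ± 0.07 with SREBP2 (edgeR adjusted p = 3.05e-06 and 7.93e-06).

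The pair of cytosolic HSP90 genes both fell, Hsp90aa1 more than Hsp90ab1. Hsp90aa1 encodes the form that heat induces (chr12:110691036-110696395) and stood at 2534, 2618 and 2786 CPM in Vector, 1681, 1879.7 and 1920.4 CPM in SREBP2, 1841, 1763 and 1805 CPM for Vector+EST and 1955, 1746 and 1762 CPM in SREBP2+EST. Hsp90ab1 encodes the constitutive form (chr17:45567778-45573261) and stood at 3464, 3468 and 3564 CPM in Vector, 2560.3, 2696 and 2649 CPM in SREBP2, 2667, 2699.6 and 2758 CPM for Vector+EST and 2756, 2668 and 2666 CPM in SREBP2+EST. The Vector libraries stood above all others for both genes. For Hsp90aa1 the log2 fold change was -0.55 ± 0.05 with EST and -0.53 ± 0.05 with SREBP2 (edgeR adjusted p = 8.74e-08 and 1.24e-07), and for Hsp90ab1 it was -0.37 ± 0.03 and -0.41 ± 0.03 (edgeR adjusted p = 9.36e-09 and 2.52e-09). Per transcript length, Hsp90aa1 stood at 0.581 ± 0.0193 of the level of Hsp90ab1 in Vector (SD, n = 3) and at 0.532 ± 0.0264, 0.511 ± 0.0162 and 0.518 ± 0.0232 of it in SREBP2, Vector+EST and SREBP2+EST. The lowest Vector ratio, 0.562, lay above the highest ratio of the other libraries, 0.557, by less than the SD of any group.

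Dnajb1 (HSP40, chr8:83608175-83612653), the J-domain partner that presents clients to HSP70, moved least. It stood at 104, 101 and 100.6 CPM in Vector, at 81.8, 83.8 and 92.2 CPM in SREBP2, at 82.2, 79.97 and 85.1 CPM for Vector+EST and at 92.6, 83.03 and 86.3 CPM in SREBP2+EST. The Vector libraries still lay above the rest. The log2 fold change was -0.31 ± 0.05 with EST and -0.25 ± 0.05 with SREBP2 (edgeR adjusted p = 5.61e-05 and 0.000431). Because Hspa8 fell more, the level of Hspa8 per transcript length went from 75.7 ± 3.83 times that of Dnajb1 in Vector (SD, n = 3) to 54.4 ± 3.15, 52.5 ± 1.08 and 52.7 ± 1.01 times in SREBP2, Vector+EST and SREBP2+EST, with no overlap between Vector and the others.

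**Figure D2:**
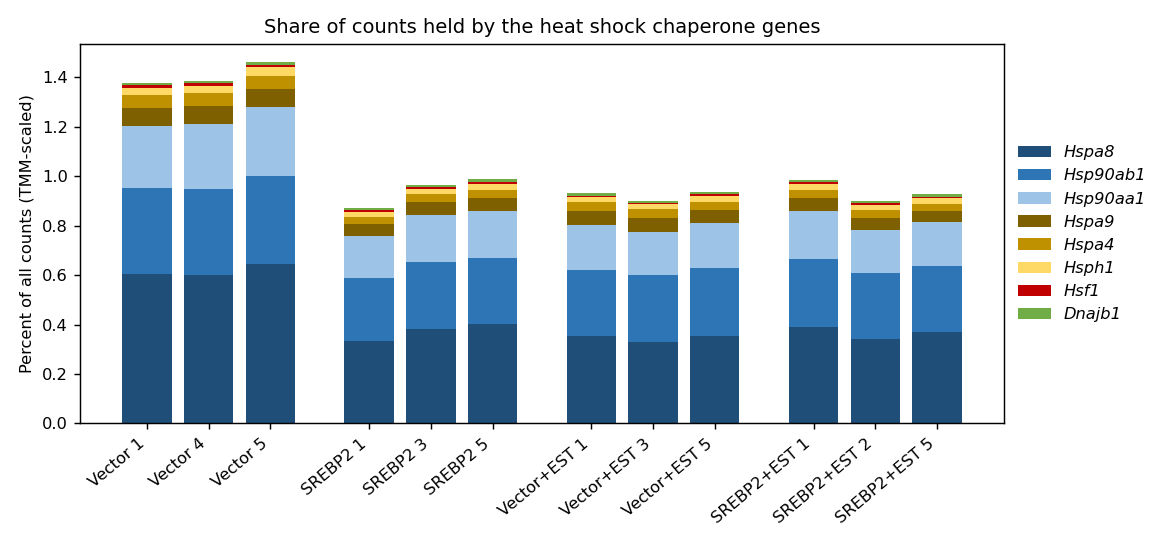
Percent of all scaled counts in each library held by the 8 abundant members, stacked with Hspa8 at the base. Vector libraries reach 1.38% to 1.46%, and the 9 others reach 0.871% to 0.987%.

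Hspa1a and Hspa1b, the heat-inducible HSP70 genes, were at the edge of detection in every group. They lie side by side (chr17:34969359-34972156 and chr17:34956429-34959238), and the genes are known as near-identical copies, so that estimated counts are split between them and neither is certain alone. Estimated counts of Hspa1a were 19.8, 10.96 and 0 in Vector, 0, 0.52 and 5.76 in SREBP2, 8.88, 0 and 0 in Vector+EST and 0, 0 and 3.26 in SREBP2+EST. Those of Hspa1b were 0, 0 and 6.37 in Vector, 6.5, 15.24 and 0 in SREBP2, 19.4, 4.62 and 4.2 in Vector+EST and 5.15, 12.09 and 0 in SREBP2+EST. Hspa1a was at 0 in 6 and Hspa1b in 4 of the 12 libraries, and both were above 0 only in SREBP2 library 3 and Vector+EST library 1. Summed, the copies held 3.26 to 28.28 counts per library, all above the floor of 3, and the groups overlapped. The sum stood at 0.631 ± 0.364 CPM (SD, n = 3) in Vector, 0.503 ± 0.315 CPM in SREBP2, 0.639 ± 0.697 CPM for Vector+EST and 0.359 ± 0.254 CPM in SREBP2+EST. Fitted as 1 feature, the sum gave a log2 fold change with EST in Vector cells of 0.03 with a 95% interval of -1.35 to 1.41 (edgeR adjusted p = 0.971), so that a change of over 2-fold either way was within the interval at this depth. Hspa8, the constitutive counterpart, stood at 3297 CPM or more in every library. When fitted alone, single copies passed the threshold in 2 of 12 fits that each left out 1 library: without Vector library 5, Hspa1a was called lower with EST and with SREBP2 and Hspa1b higher with EST, and without Vector+EST library 1, Hspa1a was called lower with EST. The adjusted p-values of these calls ran from 0.0258 to 0.0412, and the copies that were called had opposite signs.

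**Figure D3:**
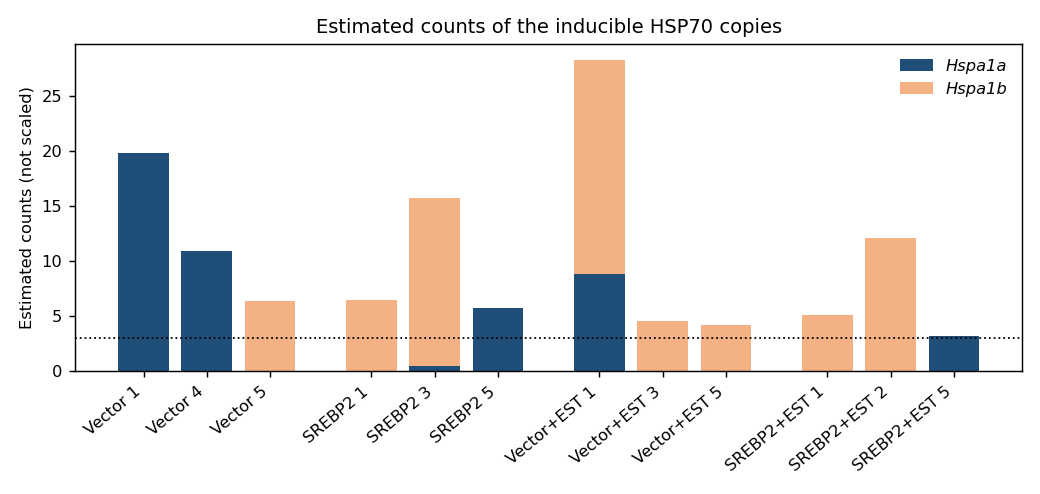
Estimated counts of Hspa1a and Hspa1b in every library, stacked and not scaled, with a dotted line at the floor of 3 counts. The sums run from 3.26 to 28.28 counts, and Hspa1b holds most of them in all 3 Vector+EST libraries, while the copy that holds most differs between libraries in the other groups.

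The comparison of Vector+EST with Vector asked what 6 h of EST does to these genes when no SREBP2 is added. Of the 9 members tested, 8 fell and none rose, and Hspa1b did not pass. Hspa1a was left out by the filter on low counts. Among all 11177 genes tested, 35.5% were called lower and 35.2% higher. Dnajb1 fell by 19.2% and Hspa8 fell by 44.0%, the ends of the range, with a median log2 fold change of -0.55 against 0.01 over all genes. In the order of all genes from the largest fall to the largest rise, Hspa8 stood at the 10.2 percentile, Hsf1 at 13.98, Hspa4 at 15.4, Hsph1 at 16.9, Hsp90aa1 at 16.97, Hspa9 at 22.4, Hsp90ab1 at 24.8 and Dnajb1 at 28.2. At a fold over 1.5, 3 members were called lower (Hsf1, Hspa4 and Hspa8), beside 15.1% of all genes. The adjusted p-value stayed at or under 0.00254 for each of the 8 falls in all 23 alternative fits.

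SREBP2 against Vector, without EST, asked what the active fragment does on its own. It uses the same Vector libraries, so the values of the comparisons are set side by side and their likeness is not tested. Again 8 of 9 members fell and none rose, beside 33.8% of all genes lower and 37.7% higher. Dnajb1 fell by 15.7% and Hspa8 fell by 39.4%, again the ends of the range, with a median log2 fold change of -0.53 against 0.03 over all genes. Hsf1, Hspa4 and Hspa8 passed a fold of 1.5, beside 13.8% of all genes called lower by that rule. Hspa8, Hsf1, Hsph1, Hsp90aa1 and Dnajb1 had log2 fold changes nearer 0 than with EST, and Hspa4, Hspa9 and Hsp90ab1 had log2 fold changes farther from 0, differences that were not tested here. Without SREBP2 library 1, the lowest of its group for 8 of 8 abundant members, all 8 falls remained past the threshold.

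**Figure D4:**
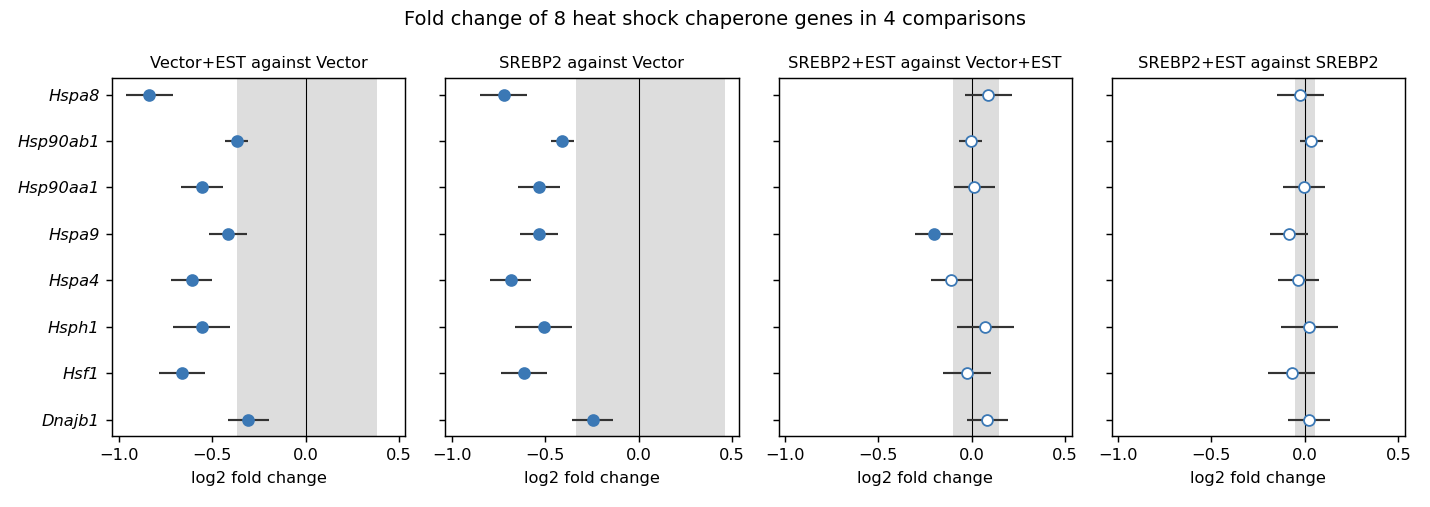
Log2 fold change of the 8 abundant members in 4 comparisons, with 95% confidence intervals as lines. Filled points passed an adjusted p of 0.05, open points did not, and the grey band spans the lower to the upper quartile of all 11177 genes. All 8 genes lie left of 0 in the first 2 panels and near 0 in the last 2, where Hspa9 with SREBP2 under EST is the one filled point.

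SREBP2+EST against Vector+EST asked what SREBP2 adds once EST is present. Only Hspa9 passed the threshold, with the fall given above, beside 7.94% of all genes lower and 14% higher. Of the genes called in this comparison 63.7% were higher, a share that became 42.2% when libraries were scaled by their totals only, 27.9% once GC content and length were corrected for and 83.2% with the header number as a block. The 888 genes called lower became 518 without Vector+EST library 1, 510 without Vector+EST library 3, 572 without SREBP2+EST library 2 and 554 without SREBP2+EST library 5. For the other abundant members the log2 fold changes ran from -0.11 for Hspa4 (95% interval -0.22 to 0.00138) to 0.09 for Hspa8 (-0.04 to 0.22). The call of Hspa9 was lost in 1 of 23 alternative fits, the one with the header number as a block (edgeR adjusted p = 0.132), and was kept in each fit that left out 1 library, with log2 fold changes of -0.26 to -0.16. Hspa4 also passed when libraries were scaled by their totals (log2 fold change -0.15) and when the libraries numbered 1 in both SREBP2 groups were left out (-0.15, adjusted p = 0.00533). With the correction for GC content and length, 4 members passed, Hsf1, Hspa4, Hspa9 and Hsp90ab1, all of them lower, beside 3056 of all genes called lower against 888 without the correction, and the median of all genes went from -0.0048 to -0.082.

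SREBP2+EST against SREBP2 asked whether EST moves the genes where SREBP2 is already high. No member passed in either direction, beside 0% of all genes higher and 0% lower in edgeR's quasi-likelihood test, where 506 genes had an unadjusted p under 0.05. DESeq2 called 12 genes, none of them a member. Log2 fold changes of the abundant members ran from -0.08 for Hspa9 to 0.03 for Hsp90ab1, and their 95% intervals together spanned -0.20 to 0.18. This result rests on the libraries numbered 1: SREBP2 library 1 was the lowest of its group for 8 of 8 abundant members and SREBP2+EST library 1 the highest of its group for 7 of 8. Without both of them, which left 2 libraries a group, 1567 genes were called and 3 members were lower with EST: Hspa9 by -0.18 (edgeR adjusted p = 0.00201), Hspa8 by -0.14 (adjusted p = 0.0325) and Hsf1 by -0.15 (adjusted p = 0.0471) on the log2 scale. The replicate statistic, near 1 where libraries differ by counting error alone, was 8.15 and 10.6 between SREBP2 library 1 and the others of its group, against 2.63 between libraries 3 and 5, and 6.19 and 6.31 between SREBP2+EST library 1 and the others of its group, against 2.29 between libraries 2 and 5.

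The interaction, which is the EST effect in SREBP2 cells minus that in Vector cells, tested directly whether these effects differ. For all 8 abundant members it was positive and past the threshold, beside 29.8% of all genes called more positive and 29.2% more negative. The values ran from 0.33 for Dnajb1 to 0.81 for Hspa8 on the log2 scale, with edgeR adjusted p-values of 0.00105 or less. Each abundant member's interaction stayed past the threshold in all 22 alternative fits.

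Other genes of the chaperone network were taken from 9 lists, and their counts are set beside the shares of all genes given above. HSP90 cochaperones mostly fell. Of 22 tested, 16 were lower and 1 higher with EST in Vector cells (median log2 fold change -0.23), and 16 were lower and 0 higher with SREBP2 alone (median -0.31). Fkbp5, a glucocorticoid-inducible prolyl isomerase that binds HSP90 with steroid receptors, went from 37.1 ± 1.28 CPM in Vector to 15.9 ± 1.08 CPM with EST alone and 12.6 ± 2.47 CPM in SREBP2 (log2 fold changes -1.22 ± 0.10 and -1.56 ± 0.11, edgeR adjusted p = 2.22e-08 and 1.57e-09). Cacybp, an adaptor that resembles the cochaperone SGT1, fell by -0.65 ± 0.05 and -0.74 ± 0.05 on the log2 scale. Ttc4 was the one cochaperone that rose, with EST, by 0.12 ± 0.04 (edgeR adjusted p = 0.0169), and this call was lost in 5 of the 12 fits that left out 1 library, with 0.06 (adjusted p = 0.252) without Vector library 5, and also with DESeq2. With SREBP2 under EST 4 were lower and 1 higher (Unc45a), a total of 5 that ran from 1 to 8 when single libraries were left out (it moved most without SREBP2 library 1, Vector+EST library 3 or 5, or SREBP2+EST library 2 or 5) and that reached 12 once GC content and length were corrected for. The call of Unc45a was lost in 10 of 23 alternative fits.

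HSP70 partners were called in each direction about as often as all genes were. Of 30 tested, 12 were higher and 11 lower with EST (35.2% and 35.5% of all genes), and 12 were higher and 12 lower with SREBP2 (37.7% and 33.8% of all genes), with medians of 0.00401 and -0.01. Dnajc2, a J-domain protein that works at the ribosome, fell by -1.04 ± 0.07 and -0.97 ± 0.07, and Bag5, an exchange factor, fell with EST by -0.53 ± 0.08. Dnajb4, a J-domain relative of Dnajb1, rose from 23.3 ± 0.677 CPM in Vector to 47.02 ± 3.99 CPM with EST alone and 38.7 ± 5.67 CPM in SREBP2, the opposite direction to Dnajb1. Dnajb12, which is anchored in the endoplasmic reticulum, rose 2.00-fold with SREBP2 and 1.73-fold with EST. Dnajb2 rose with SREBP2 and not detectably with EST: it stood at 30.7 ± 0.819 CPM in Vector and 31.3 ± 2.67 CPM in Vector+EST, and at 57.3 ± 1.33 CPM in SREBP2 and 60.3 ± 4.39 CPM in SREBP2+EST (edgeR adjusted p = 0.746 for EST in Vector cells). Hspa2, an HSP70 best known from testis, rose with EST in Vector cells (log2 fold change 0.55, edgeR adjusted p = 0.000265) and with SREBP2 in both settings, from 7.56 to 13.9 CPM without EST and from 11.1 to 15.4 CPM with it.

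Mitochondrial chaperones mostly fell, as did Hspa9. Of 17 tested, 10 were lower and 3 higher with EST, and 12 lower and 2 higher with SREBP2 (medians -0.19 and -0.18). Hspd1, the HSP60 chaperonin, stood at 1508 ± 54.6 CPM in Vector, 1174 ± 90.5 CPM in SREBP2, 1306 ± 35.6 CPM for Vector+EST and 1121 ± 68.1 CPM in SREBP2+EST, in the order of Hspa9. With SREBP2 under EST, Hspd1 and its partner Hspe1 were the 2 genes of the list that passed, both lower (log2 fold changes -0.22 ± 0.05 and -0.16 ± 0.04, edgeR adjusted p = 0.00668 and 0.00427). Both calls were lost with the header number as a block (edgeR adjusted p = 0.142 and 0.0522). Over the alternative fits, 0 to 13 genes of the list were called in that comparison. Dnaja3, the J-domain partner of mortalin, fell by -0.70 ± 0.06 with EST and by -0.69 ± 0.06 with SREBP2, and the protease gene Clpp fell by -0.65 ± 0.07 with SREBP2. Trap1, the HSP90 of mitochondria, rose instead, from 289.6 ± 4.82 CPM to 374 ± 7.14 CPM with EST and 343 ± 3.34 CPM with SREBP2.

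Chaperones of the endoplasmic reticulum were called in both directions. Of 20 genes, 6 were higher and 9 lower with EST, and 11 were higher and 5 lower with SREBP2. Hsp90b1, the HSP90 of this compartment (GRP94), rose from 534 ± 19.3 CPM to 887 ± 18.3 CPM with EST and 786 ± 92.6 CPM with SREBP2, while the cytosolic HSP90 genes fell. Calr, a calcium-binding chaperone of glycoproteins, fell 1.58-fold and 1.64-fold. Hspa5, the HSP70 of this compartment (BiP), fell with EST by -0.17 ± 0.06 (edgeR adjusted p = 0.0161), a call that was lost without Vector+EST library 5 (-0.14), and had a log2 fold change of -0.13 ± 0.06 with SREBP2 (adjusted p = 0.0575), which passed in 15 of 23 alternative fits and was -0.26 with GC content and length corrected for. Dnajc3, an inhibitor of stress kinases, was higher with SREBP2 under EST by 0.48 ± 0.04 (edgeR adjusted p = 3.11e-07), and 6 of the 20 were higher and 0 lower in that comparison. The number called there ran from 4 to 9 when single libraries were left out, and was 13 without both number 1 libraries.

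TRiC and prefoldin, which fold actin and tubulin, were called in both directions, with 6 higher and 6 lower of 14 for EST and 6 higher and 8 lower for SREBP2. Cct6a, a TRiC subunit, fell from 599 ± 21.06 CPM to 407 ± 37.1 CPM with SREBP2, and Cct7, another subunit of the same ring, rose from 498 ± 7.95 CPM to 616 ± 28.4 CPM. With SREBP2 under EST 1 was higher and 2 lower, a total of 3. That total ran from 1 to 5 when single libraries were left out and from 0 to 9 over all alternative fits. Of 10 small heat shock proteins 4 passed the low-count filter. Hspb6 rose by 0.33 ± 0.09 with EST and 0.64 ± 0.08 with SREBP2, and 1 of the 4 was called with EST and 2 with SREBP2, all higher. The number with SREBP2 ran from 1 to 3 when single libraries were left out. The call of Hspb11 with SREBP2 was lost in 4 of 23 alternative fits. The call of Hspb6 with EST was lost without Vector library 4, at 0.21. Hspb1, the classical small heat shock protein, was not tested and stood at 0 to 0.307 CPM.

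Among heat shock factors and HSF1 regulators, 6 were higher and 3 lower of 10 with EST, and 5 higher and 2 lower with SREBP2. Hsf2, a factor that binds the same elements as HSF1, moved against Hsf1. It stood at 8.04 ± 0.305 CPM in Vector, 16.1 ± 2.74 CPM in SREBP2, 21.1 ± 0.983 CPM for Vector+EST and 17.9 ± 2.19 CPM in SREBP2+EST. Every library with EST or SREBP2 lay above the Vector libraries. Its log2 fold change was 1.39 ± 0.12 with EST and 1.01 ± 0.12 with SREBP2 (edgeR adjusted p = 1.99e-08 and 1.32e-06). Gsk3b, a kinase that restrains HSF1, rose by 0.46 ± 0.06 and 0.52 ± 0.06, and Mapkapk2, a kinase that phosphorylates HSF1, fell by -0.34 ± 0.06 and -0.30 ± 0.06. With GC content and length corrected for, Gsk3b stood at 0.30 in both comparisons and Mapkapk2 at -0.18 with EST, all still past the threshold.

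Further genes listed as HSF1 targets were called in both directions. Of 19 tested, 6 were higher and 10 lower with EST, and 7 higher and 10 lower with SREBP2 (medians -0.13 and -0.09). Hspbap1, which encodes an HSPB1-associated protein, fell 2.19-fold and 1.95-fold, and Dnajb4 and Rsrp1 rose. Bag3, an exchange factor for HSP70 that strongly responds to heat, stood at 90.9 ± 1.89 CPM in Vector, 92.4 ± 1.69 CPM in SREBP2, 82.9 ± 3.03 CPM for Vector+EST and 97.9 ± 2.96 CPM in SREBP2+EST. Its fall with EST in Vector cells, -0.13 ± 0.04 (edgeR adjusted p = 0.00956), was lost without Vector+EST library 1 (-0.10) and with GC content and length corrected for (-0.013, adjusted p = 0.797). Bag3 was higher with SREBP2 under EST by 0.24 ± 0.04 (adjusted p = 0.000461), as was Sqstm1, an autophagy receptor, by 0.33 ± 0.05. The GC content and length correction left Bag3 at 0.12, and together with the header number as a block it ended that call (adjusted p = 0.167).

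**Figure D5:**
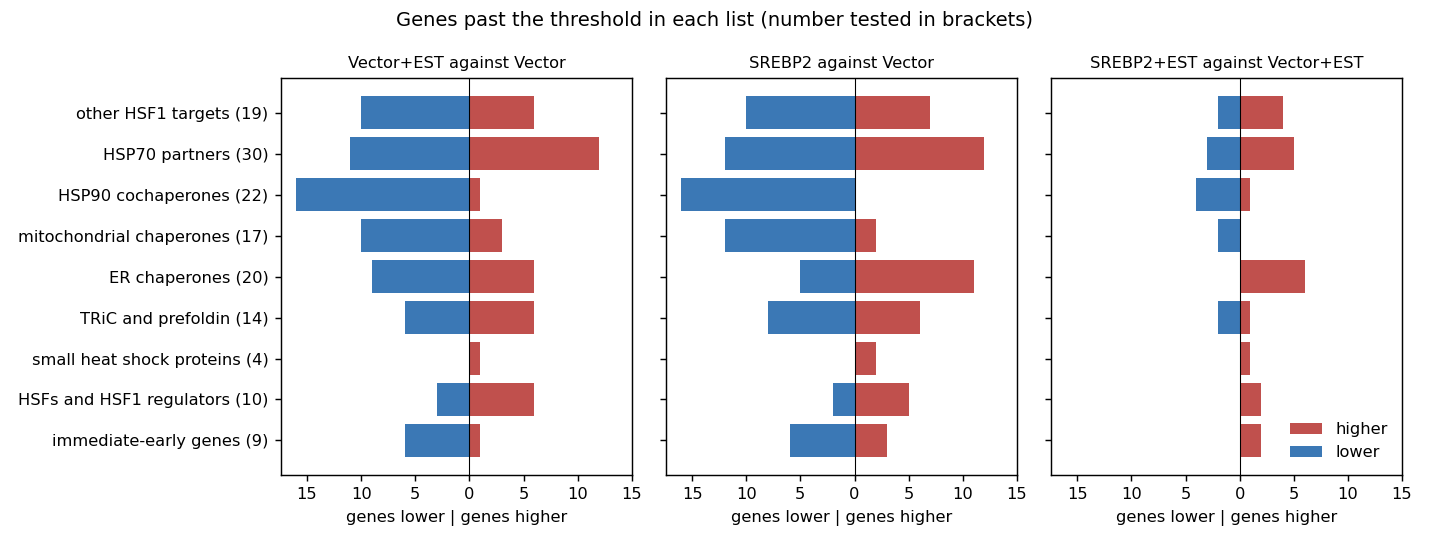
Number of genes past the threshold in each of the 9 lists for 3 comparisons, with genes lower to the left of 0 and genes higher to the right. The number tested is in brackets after each name, and some genes stand in more than 1 list. HSP90 cochaperones have 16 genes lower in each of the first 2 panels.

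Immediate-early genes, which respond within minutes to handling of cells, moved beside the chaperones. Of 9 tested, 6 were lower and 1 higher with EST, and 6 were lower and 3 higher with SREBP2. Ier2 fell from 75.7 ± 6.29 CPM in Vector to 11.4 ± 0.538 CPM with EST alone and 14.7 ± 1.57 CPM in SREBP2, and Junb fell from 63.6 ± 4.22 CPM to 32.6 ± 1.56 and 35.7 ± 6.35 CPM. Egr1 and Zfp36 rose with SREBP2 in both settings, by 0.59 ± 0.15 and 0.45 ± 0.08 without EST and by 0.72 ± 0.15 and 0.61 ± 0.08 with it. The summed erythroid markers were also higher in Vector libraries, at 10308 to 10748 CPM, than in the other 9, at 7219 to 8557 CPM, a difference in which Gata1 itself is counted. Fibroblast and stromal markers summed to 49.1 to 52.5 CPM in Vector, 19.2 to 32.1 CPM in SREBP2, 22.5 to 52.5 CPM for Vector+EST and 34.3 to 50.8 CPM in SREBP2+EST. Of these 11 measured markers 3, among them Dcn and Pdgfra, stayed at the floor. The highest single levels were those of Col5a1 (13.7 to 31.2 CPM), Col1a2 (3.87 to 19.9 CPM) and Col1a1 (0 to 13.8 CPM). Neural markers summed to 15.9 to 18.8 CPM in Vector and 3.77 to 12.8 CPM in the other libraries, with 2 of 12 at the floor. Tubb3 (1.03 to 8.51 CPM) and Gfap (0.538 to 7.06 CPM) were the highest of them, and the next, Syt1, reached 1.38 CPM. Macrophage markers summed to 2.05 to 5.08 CPM over all libraries, with 4 of 8 at the floor, and megakaryocyte markers to 88.2 to 113 CPM in both SREBP2 groups against 44.06 to 63.3 CPM in both Vector groups, with 1 of 7 at the floor. The part of handling or of other cells in the fall of the chaperones was not tested.

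Hspa8 had the widest range of group means among the 8 abundant members, 0.84 on the log2 scale. Over the 12 libraries, the genes with the most similar centred log2 CPM among 8546 candidates were Txnrd1, a thioredoxin reductase, Grb2, a signalling adaptor, Septin8, a septin, Ddx56, a nucleolar RNA helicase, and Jmjd6, an arginine demethylase and lysyl hydroxylase. Their root mean square difference from Hspa8 was 0.0512 to 0.0559, against 0.0841 for the nearest member, Hsf1. Txnrd1 went from 226 ± 5.84 CPM in Vector to 120.4 ± 3.28, 131 ± 8.27 and 130.6 ± 2.76 CPM in Vector+EST, SREBP2 and SREBP2+EST. Grb2 went from 268 ± 8.17 to 149 ± 1.72, 152 ± 13.2 and 150.04 ± 5.41 CPM.

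Read sharing bears unevenly on these values. Estimated counts of Hspa4, Hspa8, Hspa9 and Hsph1 were whole numbers in 12 of 12 libraries, those of Hsp90aa1 and Hsp90ab1 in 11 and those of Hsf1 in 10, whereas those of Dnajb1 were whole in 0 of 12, as happens when reads are divided among features. A share of the Dnajb1 counts is therefore an estimate, and with whose reads it was divided was not tested.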

How the data were processed

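Total RNA was taken with TRIzol, mRNA was selected with oligo(dT) beads, and single-end reads of 50 bases were made on a DNBSEQ instrument. The authors deposited estimated counts per gene, not normalized, of which 66.5% are whole numbers. The submitters' processing notes name HISAT2 2.0.4, Bowtie2 2.2.5, RSEM 1.2.12, DESeq2 1.4.5 and GRCm38.p6. No strand setting was given in the sources used here. A second deposited table holds the authors' own comparisons per transcript (fold changes and p-values) and was not used.

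Estimated counts were rounded, genes were kept by edgeR's filterByExpr (11177 kept, 6033 not), and libraries were scaled by TMM. Differences were tested with edgeR 4.0.16 (R 4.3.3) by the quasi-likelihood F-test on 1 mean per group over all 12 libraries, with Benjamini-Hochberg adjustment over all genes tested and a threshold of 0.05. Each SE was obtained from the fold change and its F statistic. Depth was nearly level, 18700959 to 19152281 counts, so a library's CPM has similar counting error throughout. Transcript lengths are those of the longest coding transcript in GENCODE M21, which gave a length for 96.4% of genes. In simulated counts for the EST comparison in Vector cells, 200 of 11031 genes were changed. Of these, 53 of 67 changed 1.5-fold and 34 of 67 changed 1.2-fold were recovered, with 5 of 149 calls false. In the data 35.2% of genes were called higher and 35.5% lower, a far larger share, so these rates need not hold there.

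The members and lists were chosen with earlier results of these data known. Genes named besides the members are, per list and for the first 3 comparisons, the 2 largest rises and falls that passed the threshold and averaged at least 3 in log2 CPM (not all are printed), the 5 genes most like Hspa8, and Srebf2, Gata1, Hsf2, Hspb1, Hspa5, Hspd1 and Bag3 whatever their values. Ahsp, also under that rule, was not analysed here. Alternatives were DESeq2 1.42.0, relative log expression scaling, library totals, 2 other low-count filters, only the groups compared, each library left out, both SREBP2-group libraries numbered 1 left out, the header number as a block, GC content and length correction, both together, the sum of Hspa1a and Hspa1b, and a fold over 1.5.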

Additional observations from a re-analysis of the deposited data

Results flagged for a closer look

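The effect of EST differed between SREBP2 and Vector cells for 8 members by a test of the difference itself, the interaction term in edgeR. The difference, as EST effect in SREBP2 cells minus EST effect in Vector cells on the log2 scale, was 0.81 for Hspa8, 0.59 for Hsf1, 0.58 for Hsph1, 0.57 for Hspa4, 0.55 for Hsp90aa1, 0.40 for Hsp90ab1, and 0.33 for each of Hspa9 and Dnajb1. In each gene the Vector libraries lay above the libraries of the 3 other groups, which overlapped in 7 of the 8 genes. The share of all genes with this order was not counted. For the interaction, 29.8% of all genes were called more positive. Groups of 3 libraries are too small for the test of single outlying samples, so none was made.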

How the results depend on the processing

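The falls of the 8 abundant members with EST and with SREBP2 alone kept their direction and passed the threshold in all 23 alternative fits, and their interaction did so in all 22. With a fold over 1.5 as well, 3 members were called for EST, 3 for SREBP2 alone, 0 for SREBP2 under EST and 2 for the interaction. The interaction calls were Hspa8 (1.75-fold) and Hsf1 (1.503-fold, barely past the rule). By this rule 15.1% of all genes were lower with EST and 13.8% with SREBP2 alone. The share of all genes was not counted for the other comparisons. For SREBP2 under EST, 161 of 184 values for the members stayed on the same side, 17 changed sign, 5 gained and 1 lost the threshold, and for EST in SREBP2 cells these counts were 164, 17, 3 and 0. Of 2139 values for the other named genes, 2039 were the same, 71 lost and 18 gained the threshold and 11 changed sign. The cause of the changes was not tested. At this depth, with 3 libraries a group, the interval of the sum of Hspa1a and Hspa1b with EST held changes of over 2-fold. Of 10 small heat shock proteins 4 could be tested. In a simulation with 200 of 11031 genes changed, far fewer than were called in the data, 34 of 67 changes of 1.2-fold were recovered. The part of depth alone was not tested.

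Bag3 with SREBP2 alone, at 0.02 and not called, changed sign to -0.0028 with DESeq2, -0.0028 with relative log expression scaling, -0.033 with library totals, -0.0053 with at least 10 counts in every library, and -0.026 without both number 1 libraries. Hsp90aa1 with SREBP2 under EST changed sign to -0.0025 with DESeq2, -0.0025 with relative log expression scaling, -0.031 with library totals, -0.042 without both number 1 libraries and -0.035 with GC and length correction. That correction also turned Hspa8 to -0.0081, Hsph1 to -0.0039, Dnajb1 to -0.021 and Hspa5 to -0.012, while the median of all genes went from -0.0048 to -0.082. Without both number 1 libraries, EST in SREBP2 cells gave -0.067 for Hsph1, -0.0013 for Hsp90ab1 and -0.055 for Dnajb1, with 3 members and 1567 genes called. In that comparison DESeq2 called 12 genes, no filter 22 and only the groups compared 8.

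For SREBP2 under EST, members called were 2 with library totals, 2 without both number 1 libraries and 4 with GC and length correction, which called 4236 genes. Over all genes, 1560 were higher and 888 lower before. These were 1342 and 1064 with DESeq2, 1434 and 1167 with relative log expression scaling, and 1292 and 1768 with library totals. They were 1896 and 1576 without both number 1 libraries, and 1180 and 3056 with that correction. The directions of the list genes that follow were not counted in these fits. Of HSP90 cochaperones, 8 were called with DESeq2, 9 with relative log expression, 9 with library totals, 9 without the number 1 libraries and 12 with GC and length correction. Of mitochondrial chaperones these were 6 with library totals, 7 without the number 1 libraries and 13 with GC correction, and of TRiC and prefoldin 7, 5 and 9. Without the number 1 libraries 13 chaperones of the endoplasmic reticulum were called. GC correction called 10 other HSF1 targets, 19 HSP70 partners, 2 small heat shock proteins and 4 HSF regulators. HSF regulators called were 1 with no filter and 1 with only the groups compared, immediate-early genes 4 with no filter, and small heat shock proteins 0 with at least 10 counts and 2 with only the groups compared. With SREBP2 alone, small heat shock proteins called were 1 without the number 1 libraries and 1 with GC correction.

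Leaving out single libraries, ranges for SREBP2 under EST were 0 to 2 small heat shock proteins, 1 to 4 HSF regulators, 1 to 8 HSP90 cochaperones and 1 to 5 TRiC and prefoldin genes, with -0.040 to 0.043 for Hsp90aa1 and -0.022 to 0.0070 for Hsp90ab1. For EST in Vector cells the range was 0 to 1 small heat shock proteins, and for SREBP2 alone 1 to 3, with -0.030 to 0.038 for Bag3. For EST in SREBP2 cells the ranges were -0.047 to 0.090 for Hsph1, -0.021 to 0.077 for Dnajb1, -0.061 to 0.033 for Hsp90aa1, -0.10 to 0.035 for Hspa8 and -0.088 to 0.0058 for Hspa4, and 0 to 18 genes were called, 18 without Vector+EST library 5.

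Header numbers did not pair the libraries: over 13 same-number pairs, correlations of deviations from the group means ran from -0.28 to 0.07. As a replicate block, the number left 0 members and 1208 genes called for SREBP2 under EST, where Hspa9 had -0.17 (edgeR adjusted p = 0.132), Hsf1 0.0086 and Hsp90ab1 0.0090. The calls of Hspd1 and Hspe1 in that comparison were also lost under the block (edgeR adjusted p = 0.142 and 0.0522), as were those of Hspa5, Ttc4 and Hspb6 with EST in Vector cells. The block called 3 other HSF1 targets, 1 HSP90 cochaperone and 0 mitochondrial, TRiC and prefoldin, small heat shock and HSF regulator genes there, and 0 small heat shock genes with EST in Vector cells. Bag3 with SREBP2 alone was -0.0033, and EST in SREBP2 cells gave 0.019 for Hspa8 and 0.029 for Hsp90aa1. The block together with GC and length correction gave -0.0038 for Bag3 and 1 small heat shock gene with SREBP2 alone. Under EST that fit gave -0.0024 for Hsp90aa1, -0.0092 for Dnajb1, -0.059 for Hspa5 and 0.21 for Sqstm1, with 6 mitochondrial, 5 TRiC and prefoldin, 0 small heat shock and 1 HSF regulator genes called. It gave 0.014 for Hspa8 and 0.027 for Hsp90aa1 for EST in SREBP2 cells.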
